A study of Homo sapiens with 15 samples.

Results

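The cells compared were A549, an epithelial line from a lung adenocarcinoma that the labels call human bronchial, after 4 h of interleukin-13 (IL-13) and without treatment at 0 h. Each group holds 3 Affymetrix human arrays of total RNA, so 6 of the 15 arrays of the series form the comparison, chosen by the group and time in the array titles, and all probe sets entered. The other arrays hold cells after 12 h and 24 h of IL-13 and untreated cells at 24 h, 3 arrays each, and serve only to follow the same genes. All groups are the same cell line, and the labels give neither the IL-13 dose nor the culture medium. No array of untreated cells at 4 h is labelled, so IL-13 and time in culture changed together and cannot be told apart in the 4 h comparison. The labels do not say whether the replicates were separate cultures, and the p-values then measure only the spread between arrays, which may be technical.

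IL-13 is a cytokine of allergic airway inflammation. It binds a receptor built from IL13RA1 and IL4R, the receptor's JAK kinases phosphorylate STAT6, and STAT6 turns on target genes, among them inhibitors of the same signal. Another set of genes described here answers to ATF4, a transcription factor made when amino acids run short or proteins misfold, which turns on amino acid synthesis, uptake and tRNA charging. Immediate-early and feedback genes are short-lived transcripts that follow growth factor and MAPK signalling.

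Each probe set has a deposited signal intensity on a linear scale. Signals were quantile normalized, a pseudocount of 20 was added and log2 was taken, so that fold changes of dim genes are understated. Each gene was represented by its brightest probe set, and 6884 genes were bright enough to test. Brightness was the mean over all 15 arrays, so a gene dim in 1 group could pass through brighter groups. CXCL2, CHAC1, PHF21A, CCSER2 and BCL6, described below, are among the genes that did. A gene is called where limma, fitted over all 15 arrays, gave a Benjamini-Hochberg adjusted p under 0.05. Differences are log2, IL-13 4 h minus untreated 0 h, with the standard error of the fit, and signals are as deposited. RNA was taken from whole cultures, in which fewer cells of a type and less RNA per cell cannot be told apart.

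The arrays of the IL-13 4 h and untreated 0 h groups resembled each other in quality. The median signal per array was 61.6 ± 3.59 after 4 h of IL-13 and 59.1 ± 1.82 in untreated cells at 0 h (mean ± SD, n = 3 each). The ratio of 3' to 5' signal, a measure of RNA integrity, for GAPDH was 0.887 ± 0.019 after IL-13 and 0.881 ± 0.023 at 0 h. Keratins of simple epithelium were bright in both groups, with mean signals of 4365 after IL-13 and 4049 at 0 h for KRT8, and of 11192 after IL-13 and 10539 at 0 h for KRT18. None of the 5 tested lung epithelial markers (KRT8, KRT18, KRT19, CDH1 and SFTPC) was called, while EPCAM, CLDN4, SFTPB, NKX2-1 and SCGB1A1 were too dim to test. The summed signal of 5 leukocyte markers ran from 188 to 237 on the IL-13 4 h arrays and from 171 to 181 on the 0 h arrays. Of these markers only CD3E and ITGAM were bright enough to test and neither was called, while LYZ averaged 2.81 after IL-13 and 1.72 at 0 h. The part of this shift in the results was not tested. Fibroblast markers summed to 271 to 304 after IL-13 and 254 to 302 at 0 h, and endothelial markers to 106 to 136 after IL-13 and 106 to 151 at 0 h, so that the groups overlapped for both. No marker was at 0 in either group.

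After 4 h of IL-13 a small set of genes stood apart from untreated cells, and most of them were lower. Limma called 84 of 6884 genes (1.22% of those tested), 24 higher (0.349%) and 60 lower (0.872%). Without adjustment 733 genes had p under 0.05. For all 84 called genes the 3 and 3 arrays did not overlap, as was so for 1194 genes (17.3%) of all tested. The differences were modest in size. Their median absolute value was 0.61 log2, 47 genes differed by at least 1.5-fold, and 5 (0.0726%) by at least 2-fold. Of these, CISH was the 1 that rose and TRIB3, CHAC1, CXCL2 and CCN1 were the 4 that fell. These counts use the probe set that represents each gene. Other called sets also passed 2-fold, among them 200799_at, given to several genes (1.13), and a set of STC2 (-1.70). The STC2 set was dim after IL-13, with a mean signal of 16.5. The balance of rises and falls depended on the scaling. With each array scaled to a common median, 14 genes were higher and 68 lower of 82 called (17.1% higher), against 28.6% higher of the 84. Arrays left out one at a time are named treated a, b and c (IL-13 4 h) and baseline a, b and c (untreated 0 h). The count also fell with any of the 6 arrays left out, which leaves fewer arrays in that group. It was 49, 74 and 37 without treated a, b and c, and 38, 35 and 60 without baseline a, b and c. Over the 6 arrays left out in turn, 9 to 20 genes were called higher and 25 to 54 lower.

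**Figure D1:**
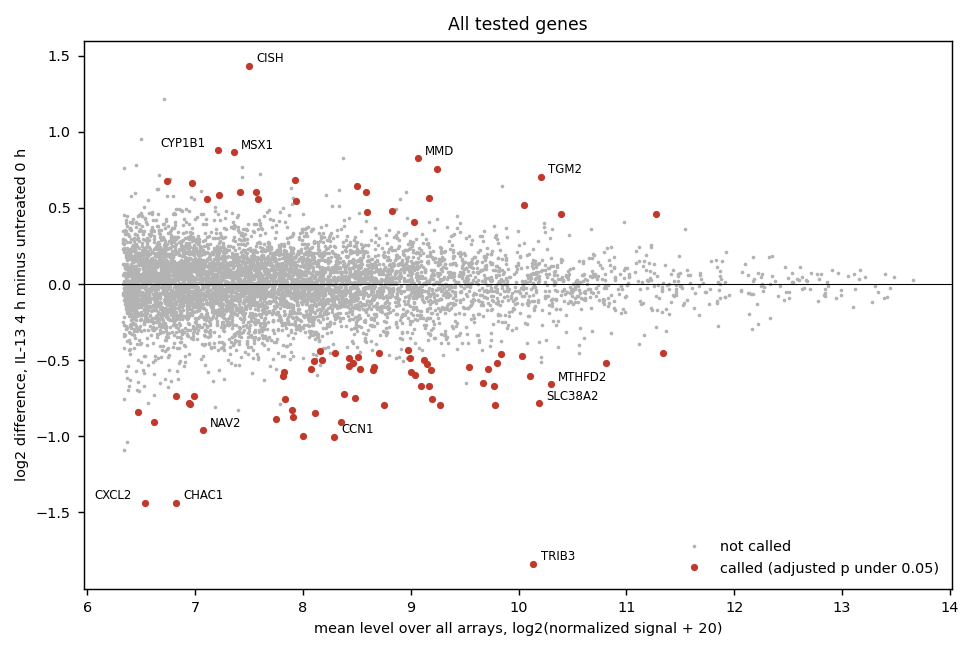
Each point is a tested gene, with its mean level over all 15 arrays, log2(normalized signal + 20), on the x axis and its log2 difference, IL-13 4 h minus untreated 0 h, on the y axis. Red points are the 84 called genes, CISH (1.43) stands highest among them and TRIB3 (-1.84) lowest.

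The receptor and its signal chain did not pass the test. IL13RA1, the IL-13 binding chain of the receptor, had signals of 311, 347 and 318 after 4 h of IL-13, against 335, 321 and 353 in untreated cells at 0 h. These ranges overlapped, and its difference was -0.02 ± 0.13 (limma adjusted p = 0.969). STAT6, the transcription factor downstream of it, had signals of 257, 262 and 322 after IL-13 and 238, 215 and 249 at 0 h. All 3 IL-13 values lay above the 0 h values, yet the difference of 0.26 ± 0.11 did not pass (limma adjusted p = 0.367). Another STAT6 probe set, too dim to test, had the opposite sign (-0.95), with mean signals of 18.8 after IL-13 and 51.7 at 0 h. JAK1, a kinase bound to the receptor, differed by -0.16 ± 0.08 (limma adjusted p = 0.51). None of the 9 tested genes of the list of receptors, JAKs and STATs was called, and their median difference was -0.02, beside 0.0039 over all tested genes. IL4R, the partner chain, was too dim for the test, with signals of 19.8, 37.3 and 19.0 after IL-13 and 57.1, 86.2 and 53.1 at 0 h. Its values after IL-13 were all below those at 0 h, and with no filter on brightness the difference of -0.95 ± 0.35 did not pass (limma adjusted p = 0.41). The decoy receptor IL13RA2 (-0.32 ± 0.26) and the inhibitor SOCS1 (0.15 ± 0.22) were also too dim, and their groups overlapped.

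CISH, a SOCS family inhibitor of cytokine receptor signalling whose gene is switched on by STAT proteins, showed the largest rise. Its signal was 258, 258 and 230.1 on the IL-13 4 h arrays, against 71.3, 101 and 62.5 on the untreated 0 h arrays. The lowest IL-13 array was more than 2-fold above the highest untreated one. CISH rose by 1.43 ± 0.14, or 2.7-fold (limma adjusted p = 1.95e-05), and its difference lay between 1.13 and 1.64 in 17 other settings of the processing. The CISH probe set is of the _x_at kind, which can cross-hybridize, and it is the only one of the gene.

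BCL6, a transcriptional repressor that binds DNA sites shared with STAT6, had signals of 97.3, 93.6 and 89.9 after IL-13 and 52.2, 49.5 and 45.5 at 0 h. Its 3 and 3 arrays did not overlap, and its other bright probe set stood at 0.11 (unadjusted p = 0.564 in the limma fit). BCL6 rose by 0.67 ± 0.16 (limma adjusted p = 0.0462), close to the threshold, and did not pass the test in 11 of 17 other settings, among them each of the 6 arrays left out, with differences of 0.39 to 0.86 over the 17. Among 14 tested inhibitors of cytokine signalling CISH and BCL6 were the 2 called genes, where 1.22% of all tested genes were called. SOCS3 stood at -0.16 and SOCS2 at -0.19, neither called, and the median of the list was 0.02.

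IRF1, a transcription factor of interferon signalling, had signals of 224, 196 and 194 after IL-13 and 115, 135 and 151 at 0 h. The highest untreated array stood below the lowest IL-13 array. IRF1 rose by 0.56 ± 0.13 (limma adjusted p = 0.0487), and like BCL6 it lost its call with any of the 6 arrays left out (0.45 to 0.63 over 18 other settings). It was the 1 called gene of 10 tested interferon-stimulated genes, where 1.22% of all tested genes were called. CXCL10, an interferon-induced chemokine, stood at -0.32 and was not called.

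The promoters of CISH, BCL6 and IRF1 are shown because they are the called rises, apart from HK1, that hold the STAT motif TTCNNNGAA in the 250 bases before the gene start. The sequences are from RefSeq (GRCh38.p14), each read 5' to 3' on the gene's own strand, and capitals mark the motif, which reads the same on both strands. They cover chr3:50611775-50612024 for CISH, chr3:187745469-187745718 for BCL6 and chr5:132490774-132491023 for IRF1, all on the minus strand.
CISH: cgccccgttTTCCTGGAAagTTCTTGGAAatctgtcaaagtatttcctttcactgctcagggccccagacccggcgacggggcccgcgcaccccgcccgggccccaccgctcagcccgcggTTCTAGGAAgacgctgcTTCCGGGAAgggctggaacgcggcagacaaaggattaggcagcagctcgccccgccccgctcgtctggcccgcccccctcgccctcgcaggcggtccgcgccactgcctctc
BCL6: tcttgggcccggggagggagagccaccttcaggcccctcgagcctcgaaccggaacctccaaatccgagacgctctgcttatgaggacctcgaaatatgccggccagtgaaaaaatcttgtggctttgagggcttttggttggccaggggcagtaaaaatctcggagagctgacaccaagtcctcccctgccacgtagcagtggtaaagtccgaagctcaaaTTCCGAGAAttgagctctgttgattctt
IRF1: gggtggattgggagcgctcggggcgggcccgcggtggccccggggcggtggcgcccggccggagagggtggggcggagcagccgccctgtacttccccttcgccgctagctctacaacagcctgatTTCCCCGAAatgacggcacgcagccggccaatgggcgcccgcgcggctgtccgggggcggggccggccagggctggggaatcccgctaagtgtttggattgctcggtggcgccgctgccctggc
The CISH window holds 4 matches, in a pair 241 to 222 bases and a pair 129 to 104 bases before the start. Only 5 of 35116 RefSeq promoter windows of the same length hold 4 or more. The BCL6 window holds its match 28 to 20 bases before the start and the IRF1 window 124 to 116 bases before it. Over all windows 6.57% hold the motif at least once, as did 4 of 19 called rises and 4 of 54 called falls with a window. Here and for the other motifs, the share over all windows counts each window, also of genes not tested. A called gene counts if any of its windows holds the motif, so these are unlike measures. The longer spacing TTCNNNNGAA, the form known for STAT6, occurred in 5.38% of windows, in 1 of the 19 rises and in 8 of the 54 falls. The motifs were searched after the expression values had been seen, and a match describes letters only.

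Of 30 genes listed as IL-13 and STAT6 targets of airway epithelium, 24 had a probe set and 8 were bright enough to test. Of these 8, CISH, BCL6 and TGM2 rose and none fell, where 0.349% of all tested genes were called higher, with a list median of 0.13. This and all other lists were drawn up with earlier results of these data known, which can favour called members. TGM2, a transglutaminase that cross-links proteins, had signals of 1263, 1370.2 and 1414 after IL-13 and 964, 719.9 and 804 at 0 h. Every IL-13 array was above every untreated one. TGM2 rose by 0.70 ± 0.10 (limma adjusted p = 0.00103), with its other bright probe sets at 0.68 and 0.30, and lost its call when its probe sets were averaged. The prostaglandin-degrading enzyme HPGD stood at 0.22 ± 0.11 and the secretory-cell disulfide isomerase AGR2 at 0.05 ± 0.14, and neither was called.

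**Figure D2:**
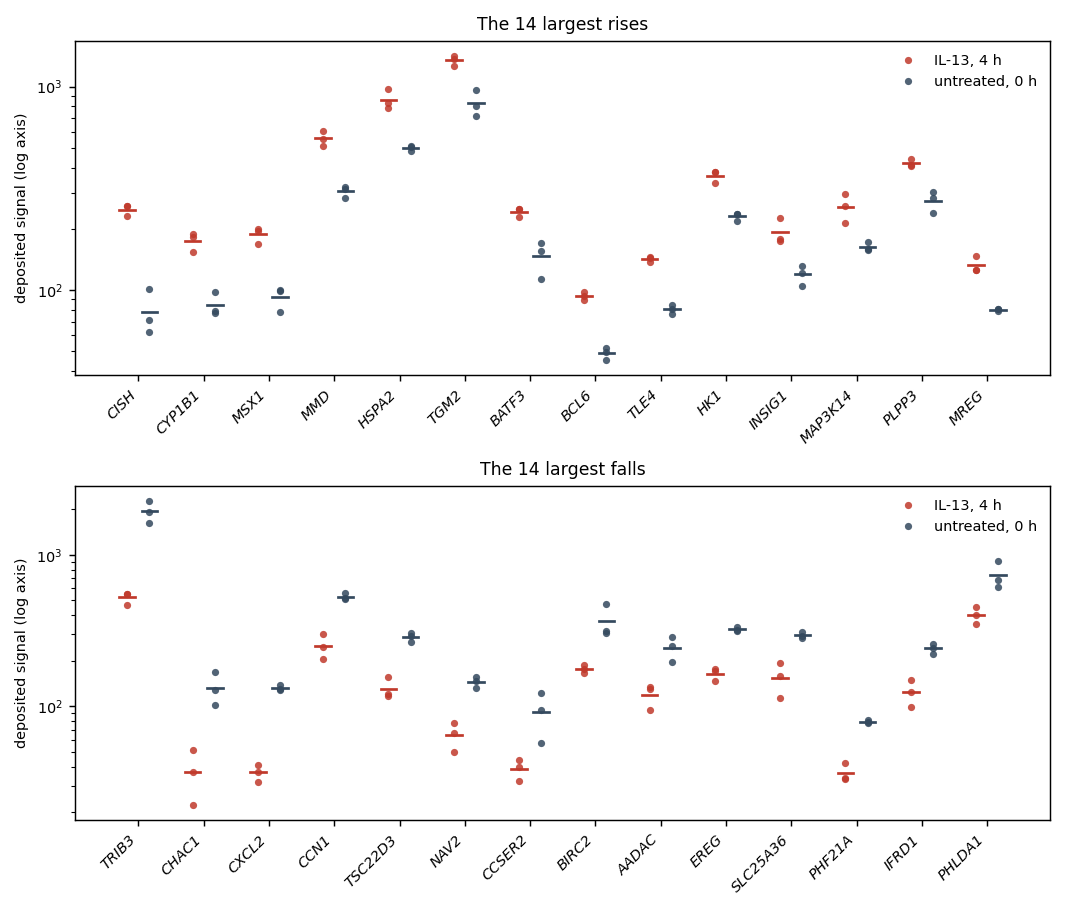
Deposited signal (log axis) of the 14 largest rises (top) and 14 largest falls (bottom) among called genes, on the 3 IL-13 4 h arrays (red, left) and the 3 untreated 0 h arrays (blue, right), with a bar at each group mean. The red and blue points of a gene do not overlap, and CISH has 258, 258 and 230.1 after IL-13 against 71.3, 101 and 62.5 at 0 h.

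Transcription factors and corepressors were among the other large rises. MSX1, a homeobox factor induced by BMP signalling, had signals of 169, 196 and 199 after 4 h of IL-13, against 98.6, 78.2 and 99.7 in untreated cells at 0 h. All IL-13 arrays were well above the untreated ones, and MSX1 rose by 0.87 ± 0.13 (1.82-fold, limma adjusted p = 0.00103). BATF3, an AP-1 family factor of immune cells, had 252, 249.6 and 228 after IL-13 and 156, 113 and 169.9 at 0 h. It rose by 0.68 ± 0.13 (limma adjusted p = 0.00821) and lost its call without baseline b (adjusted p = 0.0653). The Groucho family corepressor TLE4 had 137, 145 and 143 after IL-13 and 76.4, 80.3 and 84.8 at 0 h. Its 3 arrays in each group lay close together, but its rise of 0.67 ± 0.14 did not pass the test in 7 of 16 other settings, each single array left out among them (0.50 to 0.78). LBH, a transcriptional cofactor, rose by 0.46 ± 0.10.

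Of 18 tested glycolysis genes HK1 rose and PFKFB3 fell, where 1.22% of all tested genes were called, with a median of 0.08. HK1, the hexokinase that starts glycolysis, had signals of 336, 381 and 379 after IL-13 and 236, 219 and 236 at 0 h. The groups were clearly apart and HK1 rose by 0.64 ± 0.13 (1.56-fold, limma adjusted p = 0.0131). It lost its call without treated c or baseline a or b (0.56 to 0.69 over 18 other settings). PFKFB3, which makes the activator of the glycolytic enzyme phosphofructokinase, moved the other way. Its signals were 356, 229 and 284 after IL-13 and 555, 477 and 537 at 0 h, all IL-13 arrays below all untreated ones. PFKFB3 fell by 0.79 ± 0.17 (limma adjusted p = 0.0202), and was not called in 6 of 18 other settings, among them treated b or c and any baseline array left out (-0.94 to -0.65).

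INSIG1, an endoplasmic reticulum protein that holds back sterol synthesis, had signals of 227, 179 and 175 after IL-13 and 121, 105 and 132 at 0 h. It rose by 0.61 ± 0.15 (limma adjusted p = 0.048), did not pass the test in 11 of 17 other settings, each array left out among them (0.49 to 0.68), and both of its other probe sets were higher (0.49 and 0.92). It was the 1 called gene of 17 tested in cholesterol synthesis and uptake, where 1.22% of all tested genes were called. Of the 17, 13 were positive, beside 3504 of 6884 of all tested genes, with a median of 0.10. The lipid phosphatase PLPP3 rose by 0.60 ± 0.13, with its other probe sets at 0.48 and 0.61, and did not pass the test in 10 of 18 other settings, any array left out among them (0.51 to 0.68). The sulfate transporter SLC26A2 (0.57 ± 0.10), the heparan sulfate polymerase EXT1 (0.54 ± 0.11), the hyaluronan receptor CD44 (0.52 ± 0.09, 3 of 5 other bright probe sets positive) and the membrane protein TM4SF1 (0.46 ± 0.07) were also called higher. TM4SF1 had signals of 3019, 2949 and 3447 after IL-13 and 2064, 2283 and 2077 at 0 h, which did not overlap.

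Further rises were those of CYP1B1, MMD, HSPA2, MAP3K14 and MREG. CYP1B1, a cytochrome P450 induced through the aryl hydrocarbon receptor, had signals of 189, 182 and 153 after IL-13 and 77.2, 79.0 and 98.1 at 0 h. It rose by 0.88 ± 0.13 (1.84-fold, limma adjusted p = 0.00145), and its 2 other probe sets bright enough to test stood at 0.62 and 1.13. Both of these sets were dim at 0 h, with mean signals of 54.9 and 37.3, and passed the filter through brighter groups. MMD, a membrane protein of macrophage differentiation, had 607, 551 and 512 after IL-13 and 322, 283 and 315 at 0 h. It rose by 0.82 ± 0.11 (1.77-fold, limma adjusted p = 0.000702) and kept its call in all 18 other settings. MAP3K14, the NIK kinase of the non-canonical NF-kB pathway, rose by 0.61 ± 0.12 and did not pass the test in 6 of 18 other settings, among them treated a or c and baseline a or c left out (0.51 to 0.72). MREG, a protein of organelle transport, rose by 0.59 ± 0.12 and did not pass the test in 6 of 17 other settings, treated a or c and any baseline array left out among them (0.44 to 0.69).

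Of 15 tested heat shock chaperones and their partners, HSPA2 and BAG3 rose and none fell, where 0.349% of all tested genes were called higher, and 13 were positive, beside 3504 of 6884, with a median of 0.07. HSPA2, an HSP70 family chaperone, had signals of 787, 834 and 968 after IL-13 and 485, 505 and 512 at 0 h. The untreated arrays lay within a narrow band below all IL-13 arrays, and HSPA2 rose by 0.76 ± 0.15 (1.69-fold, limma adjusted p = 0.0112). BAG3, which binds HSP70 proteins, had 610.3, 512 and 582 after IL-13 and 408, 386 and 421 at 0 h, and rose by 0.48 ± 0.11 (limma adjusted p = 0.0282). HSPA2 lost its call without treated c or baseline a or b (0.68 to 0.80 over all settings), and BAG3 in 9 of 18 settings, among them treated a or c and any baseline array left out (0.41 to 0.56). Of the other tested members, HSP90AA1 (0.07 ± 0.10), HSPD1 (0.05 ± 0.08) and HSPB1 (0.05 ± 0.11) were not called. Probe sets given to several genes did not enter this or any list, and 6 such sets on the array were called higher (0.35 to 1.13). Of 21 listed heat shock genes, 17 had a probe set given to them alone. Members measured only by shared sets are therefore missing from these counts and from the median.

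**Figure D3:**
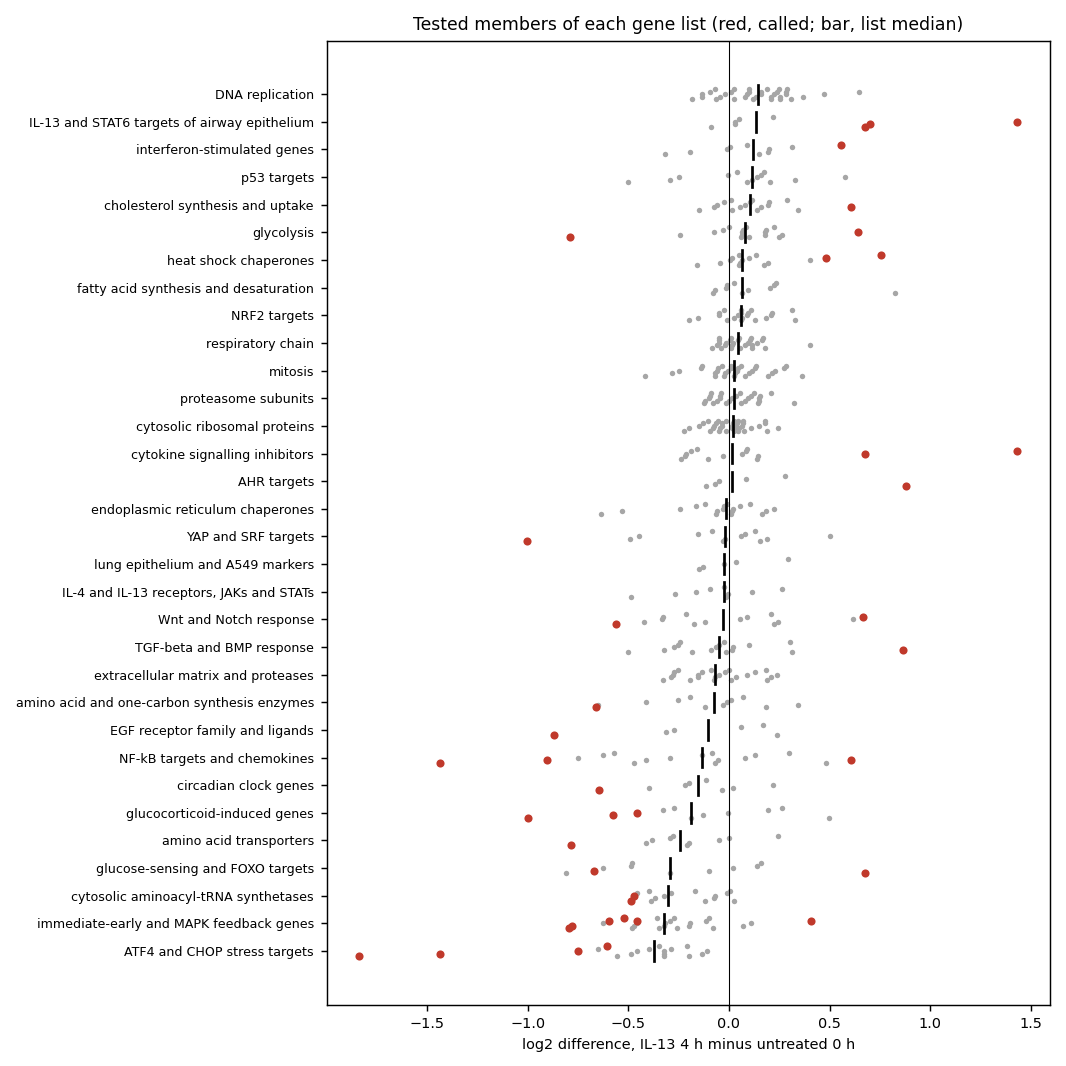
Each row is a gene list and each point a tested member, placed by its log2 difference, IL-13 4 h minus untreated 0 h, with called genes in red and the list median as a black bar. The ATF4 and CHOP targets have all 18 points below 0 and a median of -0.37, while ribosomal, proteasome and respiratory chain genes lie around 0.

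TRIB3 and CHAC1, targets of ATF4 and its partner CHOP, were among the larger falls. Of 18 tested members of this list, TRIB3, CHAC1, CEBPG and DDIT4 fell and none rose, where 0.872% of all tested genes were called lower, and all 18 were negative, beside 3380 of 6884. The median of the list was -0.37 (-0.49 to -0.32 over 18 other settings). TRIB3, a pseudokinase that feeds back on ATF4, had signals of 467, 554 and 551 after 4 h of IL-13, against 1612, 2262 and 1925 in untreated cells at 0 h. No other gene of the 84 differed by as much, and the highest IL-13 array reached well under the lowest untreated one. TRIB3 fell by 1.84 ± 0.15, or 3.57-fold (limma adjusted p = 2.58e-06), and kept its call in all 18 other settings (-1.95 to -1.74).

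CHAC1, an enzyme that degrades glutathione, had signals of 36.8, 22.4 and 51.6 after IL-13 and 102, 128 and 169.9 at 0 h. The IL-13 arrays were dim and spread, and all stood below the untreated ones. CHAC1 fell by 1.44 ± 0.21 (2.7-fold, limma adjusted p = 0.00103), with a range of -1.86 to -0.98 over 17 other settings in which it kept its call. CEBPG, a bZIP partner of ATF4, had 226, 264 and 225 after IL-13 and 457, 426 and 383 at 0 h, and fell by 0.75 ± 0.11 (limma adjusted p = 0.00103). DDIT4, an inhibitor of the growth kinase mTORC1, had 549.2, 747 and 628 after IL-13 and 913, 884 and 1201 at 0 h, and fell by 0.60 ± 0.13 (limma adjusted p = 0.0232). The groups did not overlap for either gene. ATF4 itself stood at -0.32 ± 0.10 (limma adjusted p = 0.193), DDIT3, which encodes CHOP, at -0.29 ± 0.16, and asparagine synthetase ASNS at -0.65 ± 0.17 (limma adjusted p = 0.0663), and none of them was called.

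The CHAC1 promoter is shown because it holds the combined ATF4 and C/EBP element TGATGNAA. It covers chr15:40953221-40953470 (RefSeq, GRCh38.p14, plus strand), and capitals mark the element, which lies on the opposite strand 209 to 202 bases before the start.
CHAC1: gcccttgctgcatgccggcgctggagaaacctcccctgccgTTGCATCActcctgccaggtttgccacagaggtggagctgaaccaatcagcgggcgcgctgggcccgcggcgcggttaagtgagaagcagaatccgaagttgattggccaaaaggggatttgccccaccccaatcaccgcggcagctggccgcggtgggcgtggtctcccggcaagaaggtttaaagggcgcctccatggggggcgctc
The element was found on either strand in 3.14% of all windows, in 1 of 19 called rises and in 5 of 54 called falls with a window, among them CHAC1 and CEBPG.

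Single genes were called in neighbouring steps of amino acid supply. Of 12 tested enzymes of amino acid and one-carbon synthesis, MTHFD2 fell and none rose (median -0.07), where 0.872% of all tested genes were called lower. MTHFD2, a mitochondrial folate enzyme, had signals of 959.7, 1018 and 899 after IL-13 and 1489.7, 1579.6 and 1492 at 0 h. Both groups were tight and well apart, and MTHFD2 fell by 0.66 ± 0.09 (1.58-fold, limma adjusted p = 0.000819) and kept its call in all other settings. The serine synthesis enzyme PSAT1 stood at -0.41 ± 0.10 (limma adjusted p = 0.0512). Of 10 tested amino acid transporters, SLC38A2 fell and none rose (median -0.24), beside the same 0.872% of all tested genes. SLC38A2, a sodium-coupled neutral amino acid carrier, had 803, 804 and 676 after IL-13 and 1267, 1236 and 1463 at 0 h, and fell by 0.78 ± 0.12 (limma adjusted p = 0.00114), with its other probe set also at -0.78. Its call held in all 18 other settings.

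Of 16 tested cytosolic aminoacyl-tRNA synthetases, which charge tRNAs, TARS1 and EPRS1 fell and none rose, where 0.872% of all tested genes were called lower, and 14 were negative, beside 3380 of 6884, with a median of -0.30 (-0.36 to -0.23 over 18 other settings). TARS1 had signals of 791, 956 and 823 after IL-13 and 1245, 1234 and 1093 at 0 h, and fell by 0.47 ± 0.11 (limma adjusted p = 0.0427). EPRS1 had 375, 423 and 338 after IL-13 and 616, 552 and 477 at 0 h, and fell by 0.49 ± 0.12 (limma adjusted p = 0.044). The groups did not overlap for either gene, but both calls were near the threshold. TARS1 did not pass the test in 10 of 18 other settings and EPRS1 in 9, for both among them treated a or c and baseline a or b left out, and for TARS1 also baseline c (-0.53 to -0.42 for TARS1, -0.58 to -0.32 for EPRS1). CARS1 (-0.48 ± 0.12, limma adjusted p = 0.0512) missed the threshold.

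Genes beyond these lists that fell, named after their values were seen, include PMAIP1, which encodes the apoptosis promoter NOXA (-0.76 ± 0.14), the spermine oxidase SMOX (-0.76 ± 0.14, other probe set too dim to test) and the GTP-binding protein GTPBP2 (-0.78 ± 0.16). The 18 tested chaperones of the endoplasmic reticulum gave no call, with a median of -0.02.

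Of 24 tested immediate-early and MAPK feedback genes 5 fell (PHLDA1, KLF4, DUSP5, IER3 and DUSP1) and IER5 rose, where 0.872% of all tested genes were called lower and 0.349% higher. The difference was negative for 21 of the 24, beside 3380 of 6884, with a median of -0.32 (-0.41 to -0.25 over 18 other settings). KLF4, a zinc finger transcription factor of epithelial differentiation, had signals of 71.2, 78.6 and 66.7 after IL-13 and 141, 145 and 130.3 at 0 h. All IL-13 arrays were below all untreated ones, and KLF4 fell by 0.78 ± 0.13 (1.72-fold, limma adjusted p = 0.00265), while its other probe set was too dim to test. PHLDA1, a growth factor response gene, had 454, 401 and 349 after IL-13 and 616, 680.3 and 913 at 0 h. It fell by 0.80 ± 0.13 (limma adjusted p = 0.00265), its 4 other probe sets stood at -0.86 to -0.09, and it lost its call when they were averaged.

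Of the phosphatases that switch off MAP kinases, DUSP5 fell by 0.60 ± 0.13 and DUSP1 by 0.45 ± 0.11. DUSP1 had signals of 1957, 2182 and 2328 after IL-13 and 2721, 2637 and 3121 at 0 h, without overlap. IER3, an early gene that affects cell survival, fell by 0.52 ± 0.10. IER5, an early gene of stress and growth signals, had 636, 613 and 685 after IL-13 and 479, 502 and 472 at 0 h, and rose by 0.41 ± 0.09 (limma adjusted p = 0.0407), the smallest called difference. The early transcription factors EGR1 (-0.47 ± 0.17), MYC (-0.35 ± 0.10) and JUN (-0.12 ± 0.17) were not called.

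A chemokine, an apoptosis inhibitor and an EGF receptor ligand were also among the larger falls. Of 17 tested NF-kB targets and chemokines CXCL2 and BIRC2 fell and MAP3K14 rose (median -0.13). Of all tested genes 0.872% were called lower and 0.349% higher. CXCL2, a chemokine that draws neutrophils, had signals of 41.1, 37.1 and 31.9 after IL-13 and 131, 129 and 138 at 0 h. The arrays within each group lay close together and the groups far apart, and CXCL2 fell by 1.43 ± 0.14 (2.7-fold, limma adjusted p = 1.53e-05). CXCL2 was dim after IL-13, with a mean of 36.7 against 133 at 0 h, and passed the filter on brightness only through the brighter groups. The CXCL2 probe set is of the _x_at kind, and the related chemokine CXCL1 stood at -0.75 ± 0.19 without a call (limma adjusted p = 0.0659). BIRC2, an inhibitor of apoptosis that acts in NF-kB signalling, had 186, 177 and 167 after IL-13 and 305, 472 and 315 at 0 h, and fell by 0.91 ± 0.14 (limma adjusted p = 0.00156).

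The CXCL2 promoter, chr4:74099196-74099445 on the minus strand (RefSeq, GRCh38.p14), is shown because it holds an NF-kB site 78 to 68 bases before the start, marked in capitals.
CXCL2: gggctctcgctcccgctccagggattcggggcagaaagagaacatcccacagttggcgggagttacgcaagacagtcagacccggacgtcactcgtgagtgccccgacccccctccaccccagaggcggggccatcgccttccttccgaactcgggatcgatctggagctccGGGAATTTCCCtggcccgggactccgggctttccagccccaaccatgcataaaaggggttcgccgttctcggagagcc
The NF-kB site was found on either strand in 5.21% of all windows, in 4 of 19 called rises and in 6 of 54 called falls with a window.

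EREG, a ligand of the EGF receptor, had signals of 176, 170.2 and 147 after IL-13 and 317, 332 and 321 at 0 h. The untreated arrays agreed closely and lay above all IL-13 arrays, and EREG fell by 0.87 ± 0.12 (1.83-fold, limma adjusted p = 0.000643). It was the 1 called gene of 6 tested in the EGF receptor family and its ligands, where 1.22% of all tested genes were called. The receptor kinase EPHA2 fell by 0.48 ± 0.10, and the Notch ligand JAG1 by 0.56 ± 0.10 (limma adjusted p = 0.00511), a call lost when its probe sets were averaged. CCN1, a matrix protein induced by SRF and YAP, had 245, 205 and 299 after IL-13 and 559, 510.2 and 523 at 0 h. Its groups were far apart and it fell by 1.004 ± 0.17 (2.01-fold, limma adjusted p = 0.00358), with another probe set at -0.90. It was the 1 called gene of 13 tested YAP and SRF targets, where 1.22% of all tested genes were called, with a median of -0.02. THBS1 of the same list stood at 0.50 ± 0.12 (limma adjusted p = 0.0558), and another of its probe sets was called higher, at 0.74 (adjusted p = 0.0172 in the limma fit of probe sets).

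Of 11 tested genes induced by glucocorticoids, TSC22D3, SGK1 and DUSP1 fell and none rose, where 0.872% of all tested genes were called lower, with a median of -0.19. TSC22D3, which encodes the anti-inflammatory protein GILZ, had signals of 156, 120.4 and 117 after IL-13 and 292, 265 and 304 at 0 h. All IL-13 arrays were far below the untreated ones, and TSC22D3 fell by 0.996 ± 0.12 (1.99-fold, limma adjusted p = 0.000192), while its other probe set was too dim to test. SGK1, a kinase that regulates ion channels, had 162, 178 and 142 after IL-13 and 265, 251 and 247 at 0 h. It fell by 0.58 ± 0.12 (limma adjusted p = 0.0179) and lost its call without treated a or c or baseline a or b (-0.66 to -0.48). The transcription factor CEBPD, highest of the list at 0.50 ± 0.18 (limma adjusted p = 0.281), the metallothionein MT2A (-0.13 ± 0.13) and the glutamine synthetase GLUL (-0.0034 ± 0.14) of the same list were not called.

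BHLHE40, a repressor of the circadian clock, fell by 0.65 ± 0.10 (limma adjusted p = 0.0021). It was the 1 called gene of 8 tested clock genes, where 1.22% of all tested genes were called. BTG1, an inhibitor of proliferation, had signals of 629.9, 663 and 681 after IL-13 and 1121, 1188 and 926 at 0 h, and fell by 0.67 ± 0.13 (limma adjusted p = 0.0102). Its other probe set was also lower (-0.79), and its call was lost without baseline a or b (-0.78 to -0.62 over all settings). BTG1 fell and BCL6 rose among 11 tested glucose-sensing and FOXO targets, beside the same 1.22% called of all tested genes.

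The remaining large falls belong to no list. NAV2, a microtubule-associated protein, had signals of 77.3, 66.6 and 50.02 after IL-13 and 148, 155 and 131 at 0 h, and fell by 0.96 ± 0.13 (limma adjusted p = 0.000624). AADAC, an esterase, had 134, 131 and 94.3 after IL-13 and 286, 251 and 195 at 0 h, and fell by 0.89 ± 0.19, and was not called in 6 of 18 other settings, treated a or c and baseline a or b left out among them (-1.03 to -0.72). IFRD1, a transcriptional coregulator, fell by 0.83 ± 0.14 and kept its call in all settings. SLC25A36, a mitochondrial nucleotide carrier, fell by 0.85 ± 0.14 and lost its call when its probe sets were averaged. CCSER2 (-0.91 ± 0.19, other probe set 0.06) did not pass the test in 6 of 17 settings, treated c and baseline a or c left out among them (-1.19 to -0.43). PHF21A, a chromatin reader, fell by 0.84 ± 0.17 and did not pass the test in 6 of 17 settings, treated a or c and any baseline array left out among them (-1.13 to -0.54). The transcription factor SOX4 fell by 0.56 ± 0.10.

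Housekeeping and growth programmes gave no calls. None was called among 37 cytosolic ribosomal proteins (median 0.02), 27 respiratory chain genes (0.05), 26 proteasome subunits (0.02), 31 mitosis genes (0.03), 21 NRF2 targets (0.06), 23 genes of the extracellular matrix and proteases (-0.07), 13 p53 targets (0.12) or 11 genes of fatty acid synthesis (0.06). Among 34 tested DNA replication genes none was called either, but 26 were positive, beside 3504 of 6884 of all tested genes. Their median was 0.15 (0.07 to 0.19 over 18 other settings). The sliding clamp PCNA stood highest of them at 0.65 ± 0.20 (limma adjusted p = 0.167). List medians near 0 had no settled sign: those of the mitosis genes, respiratory chain, proteasome, endoplasmic reticulum chaperones, cytokine inhibitors and YAP and SRF targets turned in at least 1 of 18 other settings, while the median over all tested genes lay between -0.05 and 0.03.

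The untreated cells at 24 h give a second comparison for the same 3 IL-13 arrays. Against them, limma called 621 of 6884 genes at 4 h (9.02%), 289 higher (4.2%) and 332 lower (4.82%). All 24 rises and all 60 falls called against 0 h had the same sign against 24 h, and 19 of the rises and 47 of the falls were called there too, 66 genes or 0.959% of all tested. Both comparisons use the same IL-13 arrays, so these are not independent counts. The 621 became 240 without treated c, 395 without untreated 24 h array a and 381 without untreated 24 h array c. MSX1 differed by 0.93 from untreated cells at 24 h and TRIB3 by -1.96, close to their differences of 0.87 and -1.84 from 0 h. CYP1B1 (0.28, limma adjusted p = 0.204), MMD (0.35), BATF3 (0.19) and BCL6 (0.22) were not called against 24 h. CCN1, with a mean signal of 249.97 ± 47.1 after 4 h of IL-13, stood near the 268 ± 60.3 of untreated cells at 24 h (SD, n = 3 each) and differed by -0.07 (limma adjusted p = 0.859).

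Untreated cells at 24 h were also set against untreated cells at 0 h, a comparison that shares the 0 h arrays on which the 84 genes were chosen, which favours the same sign in both. Between untreated 24 h and untreated 0 h, 249 genes were called (3.62%), 1.73% of all tested higher and 1.89% lower. Of the 24 rises at 4 h, CYP1B1 (0.60 ± 0.13), MMD (0.48 ± 0.11) and BATF3 (0.49 ± 0.13) were also higher in untreated cells at 24 h, and SLC26A2 was lower (-0.48). Of the 60 falls, CCN1 (-0.94 ± 0.17) and PACSIN2 (-0.54) were also lower, while JAG1 (0.57), SOX4 (0.35), DDIT4 (0.88) and EHBP1 (0.41) were higher. The median of the rises was -0.06 and that of the falls 0.04 in untreated cells. For TRIB3 the untreated arrays averaged 1979.6 ± 421 at 24 h and 1933 ± 325 at 0 h, with no difference called (0.13, limma adjusted p = 0.684).

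The test found no gene that differed between 12 h and 4 h of IL-13. Limma called 0 of 6884 (0%), while 697 had an unadjusted p under 0.05, 30 of the 84 among them. Leaving out 1 array changed this count to at most 3, and the other settings gave 0 to 4. Against 0 h, all 84 genes had the same sign at 12 h, with 19 of 24 rises and 38 of 60 falls called, beside 1.57% of all tested genes called higher, 2.59% lower and 4.15% in all. That comparison shares the 0 h arrays with the 4 h one. The mean signal of CISH was 223 ± 39.6 at 12 h and 249 ± 16.1 at 4 h, and that of TRIB3 452 ± 18.8 at 12 h and 524 ± 49.6 at 4 h (SD, n = 3 each). PFKFB3 stood at -0.14 against 0 h at 12 h and -0.79 at 4 h, and SLC25A36 at -0.20 at 12 h and -0.85 at 4 h, differences that the test between the times did not call.

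**Figure D4:**
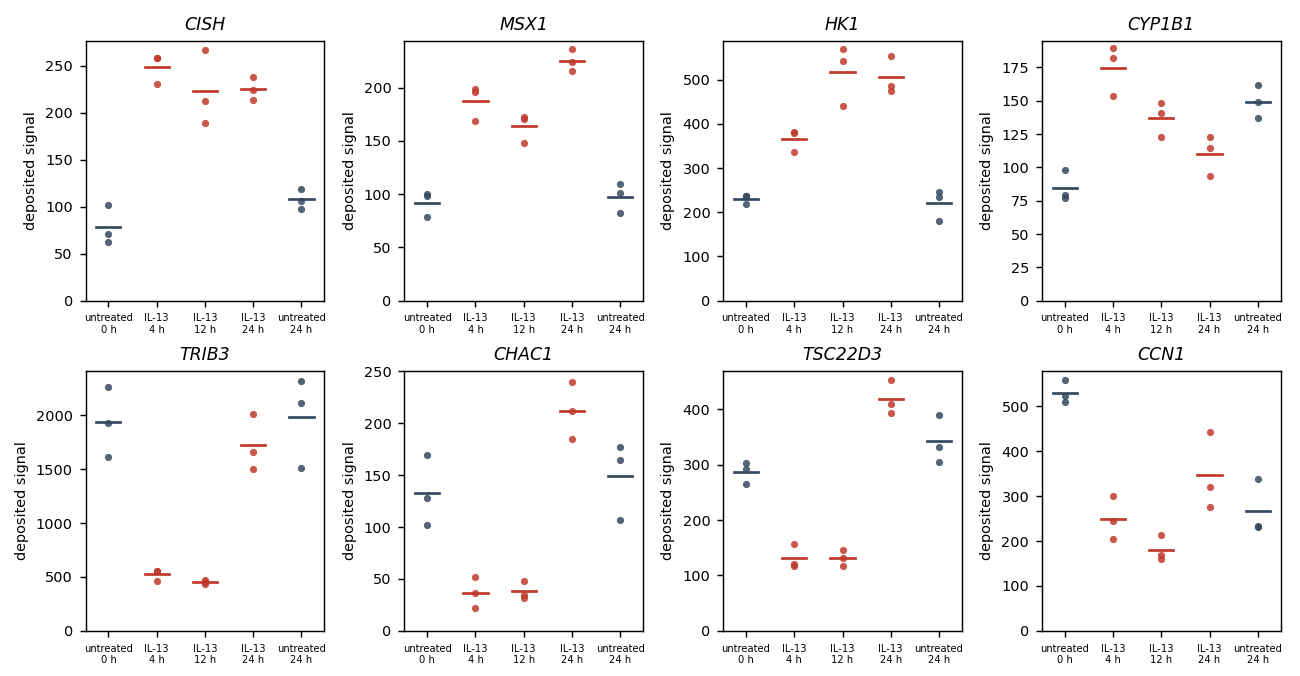
Deposited signal of 8 genes on each array, with a bar at the group mean, from untreated 0 h through IL-13 at 4 h, 12 h and 24 h to untreated 24 h (IL-13 red, untreated blue). CISH, MSX1 and HK1 stayed above both untreated groups, TRIB3, CHAC1 and TSC22D3 were low at 4 h and 12 h only, and CYP1B1 and CCN1 at 4 h lay near or level with untreated cells at 24 h.

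At 24 h, IL-13 and untreated cells were matched in time, and this comparison shares no array with that at 4 h. Limma called 482 genes there (7%), 271 higher (3.94%) and 211 lower (3.07%). The count was 1236 with median scaling and 243 with only the groups compared. With a 24 h array left out, the 482 became 282 (IL-13 a), 194 (IL-13 c), 253 (untreated a) or 225 (untreated c). Of the 24 genes that rose at 4 h, 19 were higher again at 24 h and 14 were called higher, with a median of 0.50. These 14 were CISH, MSX1, MMD, TGM2, HK1, INSIG1, PLPP3, MREG, SLC26A2, TBC1D4, EXT1, CD44, TM4SF1 and LBH. Fewer genes rose at 4 h with an array left out, and the count called at both times was then 9 without treated a, 7 without treated c, and 7, 8 and 9 without baseline a, b and c. HK1 had a mean signal of 505 ± 43.2 after 24 h of IL-13 and 220.1 ± 34.5 in untreated cells at 24 h (SD, n = 3 each), and rose by 1.15 ± 0.13. MSX1 rose by 1.16 ± 0.13 at 24 h and MREG by 1.03 ± 0.12, while CISH rose by 1.03 ± 0.14.

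Of the 60 falls at 4 h, 26 were lower at 24 h, 5 were called lower and 2 called higher, with a median of 0.03. The 5 were NAV2 (-0.60 ± 0.13), SOX4 (-0.76), BTG1 (-0.57), PFKFB3 (-0.57) and GRB10 (-0.36), and the 2 called higher were PMAIP1 (0.58) and PACSIN2 (0.49). The count of 5 was 3 without treated b, baseline a or untreated 24 h array c, 2 without baseline b or untreated 24 h array a, and 10 without untreated 24 h array b. TRIB3 averaged 1721 ± 262 after 24 h of IL-13 and 1979.6 ± 421 in untreated cells at 24 h (SD, n = 3 each), a difference of -0.30 ± 0.15 that was not called. The ATF4 and CHOP targets had a median of 0.03 at 24 h between IL-13 and untreated cells, beside -0.37 at 4 h. Together 21 genes were called at both times, 25% of the 84 and 4.36% of the 482, 19 of them in the same direction. Over all 6884 genes 46.5% had the same sign at both times, and the 2 sets of differences correlated at -0.0387 across genes, which are not independent replicates.

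**Figure D5:**
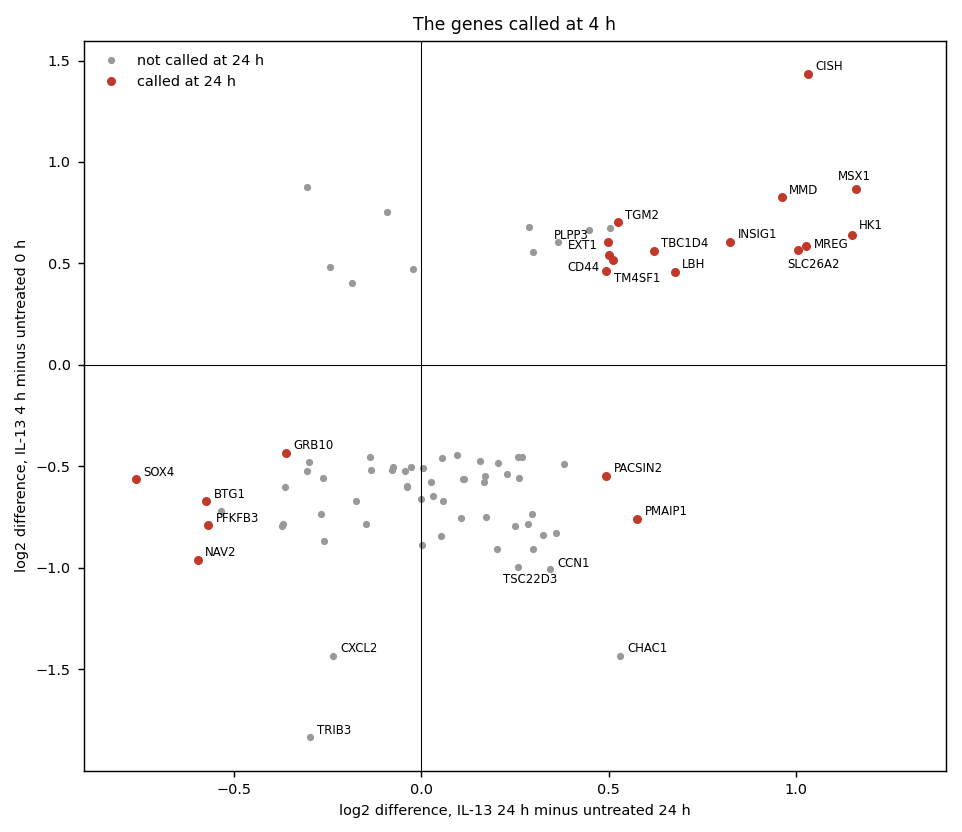
Each point is 1 of the 84 genes called at 4 h, with its log2 difference between IL-13 and untreated cells at 24 h on the x axis and its difference between IL-13 4 h and untreated 0 h on the y axis. Red points, called at 24 h, lie mostly among the rises, where 14 of 24 were called in the same direction, and are few among the falls, where 5 of 60 were.

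The difference at 24 h minus the difference at 4 h was tested in the same model. Limma called 218 genes (3.17%), 1.99% of all tested with a positive and 1.18% with a negative value, 33 of the 60 falls among them and 4 of the 24 rises, in each case with the 4 h change smaller or turned in sign at 24 h. Since these genes were chosen on the 4 h and 0 h arrays, which enter the test, the choice favours such a return. Leaving out any 1 of the 12 arrays other than IL-13 24 h array b or untreated 24 h array b lowered the 218 to between 64 (without baseline b) and 143 (without baseline c). CHAC1 gave the largest value, 1.97 (limma adjusted p = 0.00361), from -1.44 ± 0.21 at 4 h and 0.53 ± 0.21 at 24 h. TRIB3 gave 1.54, CCN1 1.35, PMAIP1 1.33 and TSC22D3 1.25. Among the rises CYP1B1 (-1.18), HSPA2 (-0.85), BAG3 (-0.72) and IER5 (-0.59) were called, all 4 called higher at 4 h and below 0 without a call at 24 h. CISH (-0.40, limma adjusted p = 0.287) and TGM2 (-0.18) were not called.

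Of 11107 tested sets 110 were called (0.99%), 37 higher and 73 lower. They named 83 genes through a single symbol, 73 of them among the 84, and 12 genes had at least 2 called sets. The other 10 genes were called only through a set that did not represent the gene, and were named after their values were seen. Of these STC2, a listed ATF4 target, stood at -1.70 ± 0.25, with mean signals of 16.5 after IL-13 and 93.8 at 0 h, while its brighter set stood at -0.32 without a call. The called STC2 set was dim after IL-13 and passed the filter on brightness only through brighter groups. GDF15, a stress-induced cytokine, stood at -1.12 ± 0.17, with 193 after IL-13 and 448 at 0 h, and VEGFA, a vascular growth factor, at -0.81 ± 0.16. EIF1 (-0.61 and -0.46 in its called sets), PAPPA (-0.60), NFE2L1 (-0.56), SOX9 (-0.45) and MCL1 (-0.42) were also lower. The glucose transporter SLC2A3 was higher at 1.002 ± 0.23, with 167 after IL-13 and 74.6 at 0 h, and THBS1, a matrix protein, at 0.74 ± 0.15, with 296 after IL-13 and 170.0 at 0 h. The called sets of GDF15, EIF1, MCL1 and SLC2A3 are of the _x_at kind, which can cross-hybridize. For all 10 genes the set that represents the gene was not called, so these values describe single probe sets. The 110 became 65 without treated a, 49 without treated c, and 51, 59 and 60 without baseline a, b and c. Of the 84 genes, 52 had a single probe set on the array. The other 32 had 43 further probe sets bright enough to test, of which 38 had the same sign.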

How the data were processed

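Total RNA of A549 cells was hybridized to Affymetrix hgu133a arrays. The deposited values are signal intensity on a linear scale for 22283 probe sets; tested on the file, the mean of each array after trimming its extremes is the same on every array. The steps behind these values are not given in the sources used here. From these values, signals were quantile normalized over all probe sets, the 68 controls included, and log2(signal + 20) was taken. Of the other probe sets 19065 carry a single gene symbol in the platform table; 1043 with several and 2107 with none were tested as probe sets only and name no gene. Each of 11963 genes was given by its brightest probe set (an _x_at set only where it has no other), and 6884 genes whose log2 signal averaged above 6.33 (the midpoint of the non-control sets) were tested. Array files name no genome build, so promoters alone carry coordinates.

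Groups came from the array titles. One limma fit over the 5 groups of 3 arrays (10 residual degrees of freedom, empirical Bayes with a variance trend, two-sided, Benjamini-Hochberg over all tested genes, threshold 0.05; limma 3.58.1, R 4.3.3) gave every test; an exact permutation test of 3 against 3 arrays cannot go below p = 0.1. The fit was tested on simulated data. Genes named are the 14 largest rises and 14 largest falls, up to 2 called genes of each of 35 lists with the smallest p, and the IL-13 receptor and STAT genes IL13RA1, IL13RA2, IL4R, STAT6, JAK1, SOCS1, CISH, TGM2 and BCL6; other genes named were chosen after their values were seen. Members and lists were chosen with earlier results of these data known, and some genes stand in several lists. Alternatives changed the scaling, pseudocount, filter, choice of probe set, arrays in the fit, variance trend, array weights and pairing, and left out each array in turn. Array letters a, b and c are shared between groups, but same-letter deviations correlated at 0.0416, 0.105 and 0.000983, so the letters were taken as names only.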

Additional observations from a re-analysis of the deposited data

Results flagged for a closer look

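For 19 of 43 named and tested genes, the difference between IL-13 and untreated cells at 24 h was unequal to that at 4 h by limma's test of the 24 h difference minus the 4 h difference. Over all 6884 tested genes the same test called 218 (3.17%). That count was 64 to 237 with an array left out and 778 with median scaling. Of the 19 named genes, 16 had fallen at 4 h and 3 had risen. All were chosen on the 4 h and 0 h arrays, and only the 24 h comparison is matched in time, so time in culture and a change of the IL-13 effect cannot be told apart. Among stress and amino acid genes the values, in log2, were 1.97 for CHAC1, 1.54 for TRIB3, 0.66 for MTHFD2, 0.87 for EPRS1 and 0.63 for TARS1. Among signalling, chemokine and early genes they were 1.35 for CCN1, 1.25 for TSC22D3, 1.20 for CXCL2, 1.20 for BIRC2, 1.07 for KLF4, 0.68 for BHLHE40 and 0.61 for EREG. The falls outside the lists gave 1.19 for IFRD1, 1.16 for PHF21A, 1.11 for CCSER2 and 0.90 for SLC25A36. The rises gave -1.18 for CYP1B1, -0.85 for HSPA2 and -0.72 for BAG3.

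The probe sets that the platform table gives to several genes hold 6 that were higher after 4 h of IL-13, and none of them entered the test of genes. The largest differences were 1.13 log2 for 200799_at (mean signals 2175 after IL-13 and 960.1 at 0 h) and 1.003 for 200800_s_at (636 after IL-13 and 305 at 0 h). Then came 0.90 for 202581_at (301 after IL-13 and 156 at 0 h), 0.76 for 216236_s_at (184 after IL-13 and 103 at 0 h), 0.76 for 217714_x_at (188 after IL-13 and 101 at 0 h) and 0.35 for 211940_x_at (4217 after IL-13 and 3219 at 0 h). The 3 IL-13 arrays lay above the 3 untreated arrays for all 6 sets.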

How the results depend on the processing

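The number of genes called at 4 h was 84 and lay between 56 and 114 over 12 other settings, with 60 called where the replicate letter entered as a block. It lay between 35 and 74 with 1 array left out (9 to 20 higher, 25 to 54 lower). Median scaling gave 14 higher genes in place of 24, and no filter 38 lower in place of 60. Of 40 named called genes, 17 kept their call in every setting and 23 lost it in some, and none of the 40 turned in sign. Sign turns were seen for genes that were not called: STAT6 was -0.34 with the mean of its probe sets, of which the other was too dim to test, IL13RA1 0.0012 without treated array a and 0.0059 without baseline array c (-0.063 at the lowest with an array left out), and SOCS1 -0.053 without treated array b, up to 0.31 with another array left out. The 621 genes called at 4 h against untreated 24 h were 368 with only the groups compared, and 240 to 587 with an array left out. The 482 of the 24 h comparison were 1236 with median scaling and 243 with only the groups compared, and 194 to 539 with an array left out. The 218 of the 24 h minus 4 h difference were 778 with median scaling, 87 with no filter, 136 with no variance trend and 138 with the replicate block, and 64 to 237 with an array left out. Of the rises 7 to 14, and of the falls 2 to 10, were also called at 24 h with an array left out. The falls also called at 24 h were 3 with signals as deposited, median scaling, tested-gene median scaling, the mean of probe sets or only the groups compared. The probe sets called were 49 to 75 with an array left out. The block changed the other counts of calls by at most 1.5 times. The cause of these shifts was not tested. IL4R, IL13RA2 and SOCS1 lay below the brightness filter, so their differences come from the fit with no filter, and with 3 arrays a group the number of arrays limits the precision of every difference.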

Other observations

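Called genes that belong to no list, named after their values were seen, came from several parts of the cell. Among genes of RNA and ribosome production, the helicase DDX10 (-0.58 ± 0.12), the ribosome assembly factor NOC3L (-0.45 ± 0.09), the splicing protein SRRM2 (-0.60 ± 0.14, other bright probe set 0.06) and the elongation factor TCEA1 (-0.52 ± 0.11) were lower after 4 h of IL-13. GEMIN6, part of the complex that assembles spliceosomal particles, was higher (0.47 ± 0.11). Among transcription regulators, KLF2 (-0.73 ± 0.17), ZMIZ1 (-0.72 ± 0.17), TCF12 (-0.46 ± 0.10) and the cofactor FHL2 (-0.52 ± 0.09) were lower.

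FHL2 had signals of 481, 475 and 489 after IL-13 and 705, 766 and 681 at 0 h, tightly grouped and well apart (limma adjusted p = 0.00335). The desmosomal cadherin DSG2 (-0.52 ± 0.12) and the cohesin regulator PDS5A (-0.51 ± 0.12, other bright probe set -0.11) fell as well. At 24 h between IL-13 and untreated cells none of these 11 genes was called, the closest being ZMIZ1 (-0.53, limma adjusted p = 0.0635).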
